A study of Mus musculus and Homo sapiens with 9 samples.

Results

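The genes described here encode the receptor chains, kinases, transcription factors and feedback inhibitors through which interleukin 2 and related cytokines signal in T cells. The set was defined by name and held 10 genes, IL2RA, IL2RB, IL2RG, IL7R, JAK1, JAK3, STAT5A, STAT5B, CISH and SOCS2, and their mouse counterparts of the same symbols. All 10 had a row in both count tables, among 64252 rows for the human cells and 43432 rows for the mouse cells. RNA-seq had been made after loss of IRF2BP2, a transcriptional co-factor, in both systems, and the question addressed here is how the RNA of this pathway stood in the libraries with and without it.

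J.gamma1 is a human T-cell acute lymphoblastic leukemia (T-ALL) line derived from Jurkat that lacks phospholipase C gamma 1. It received a control hairpin (sh-NC, n = 2) or a hairpin against IRF2BP2 (sh-IRF2BP2, n = 2), so that each group represents a single cell line, and which of the study's hairpins was sequenced is not given in the sources used here. The mouse libraries came from CD3+ T cells sorted magnetically from spleens at 6 weeks of age. The knockout group (n = 2) was Vav-iCre+/-;Irf2bp2 fl/fl, in which Cre is expressed in blood cells from their stem cells onward, and the control group (n = 3) is labelled wild type and described in the study's methods as Vav-iCre-/-;Irf2bp2 fl/fl. The sources used here do not tie a library to an animal, a culture or a batch, so that the p-values measure the spread between these libraries.

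Interleukin 2 binds a receptor of up to 3 chains. The alpha chain (IL2RA, CD25) raises the affinity for the cytokine, and the beta chain (IL2RB) and the common gamma chain (IL2RG) carry the signal. JAK1 sits on the beta chain and on the interleukin 7 receptor alpha chain (IL7R), and JAK3 sits on the common gamma chain. Activated JAK kinases phosphorylate STAT5A and STAT5B, which enter the nucleus as dimers and switch on, among others, IL2RA, CISH and SOCS2, of which the last 2 encode inhibitors that act back on the receptor. Activity of this pathway is set by phosphorylation, which was not measured in these libraries.

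Total counts ran from 26648204 to 31120236 in the J.gamma1 libraries and from 16668577 to 37177523 in the mouse libraries, with control replicate 3 the shallowest. Levels are given as CPM, counts relative to the library total as scaled by TMM, and changes as log2 fold changes fitted with edgeR, whose quasi-likelihood p-values were adjusted over 15819 human or 15350 mouse genes by the Benjamini-Hochberg method. A gene was called when the adjusted p was under 0.05 and the log2 fold change was at least 0.5 in size. IRF2BP2 itself stood at 204 and 199 CPM with sh-NC and at 79.0 and 93.8 CPM with sh-IRF2BP2 (log2 fold change -1.22 ± 0.13 SE, adjusted p = 0.0023). The control libraries held 4145, 4594 and 1915 counts of Irf2bp2 and the knockout libraries 0 each, so that it was at least 1415-fold lower at the limit of 3 counts per library that a count of 0 allows. All 10 T cell marker genes (CD3E, CD3D, CD3G, CD2, CD5, CD6, CD28, LCK, ZAP70 and CD247) were detected in both systems. Detection alone does not measure identity or purity, since markers of other cells were detected too.

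In J.gamma1 cells, the order of the members by level was led by the common gamma chain. In CPM per kilobase of exon in the sh-NC libraries, IL2RG stood at 101, followed by STAT5B at 10.7, JAK1 at 10.3 and STAT5A at 2.25. IL7R at 1.40 and JAK3 at 1.28 came next, and their ranges over the libraries overlapped, so that this pair did not differ beyond its spread. SOCS2 at 0.99, CISH at 0.81 and IL2RB at 0.24 were lower still, and IL2RA was last at 0.018. The receptor components of J.gamma1 cells were thus spread over several orders of magnitude, with the gamma chain abundant and the alpha and beta chains scarce.

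After IRF2BP2 knockdown, the alpha and beta chains of the interleukin 2 receptor and both JAK kinases rose, IL7R and STAT5A fell, and IL2RG, STAT5B, CISH and SOCS2 were not called. Thus 4 of the 10 members were called higher and 2 lower, against 10.5% of all tested genes called in either direction, 5.46% higher and 5.01% lower. The groups did not overlap for 5 members in the higher and 3 in the lower direction, against 58.3% of all tested genes, 29.6% higher and 28.7% lower. The median log2 fold change was 0.36 over the members and 0.0067 over all tested genes. IL2RA passed the filter on low counts through the sh-IRF2BP2 libraries alone, so that its count within these numbers is a description.

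**Figure D1:**
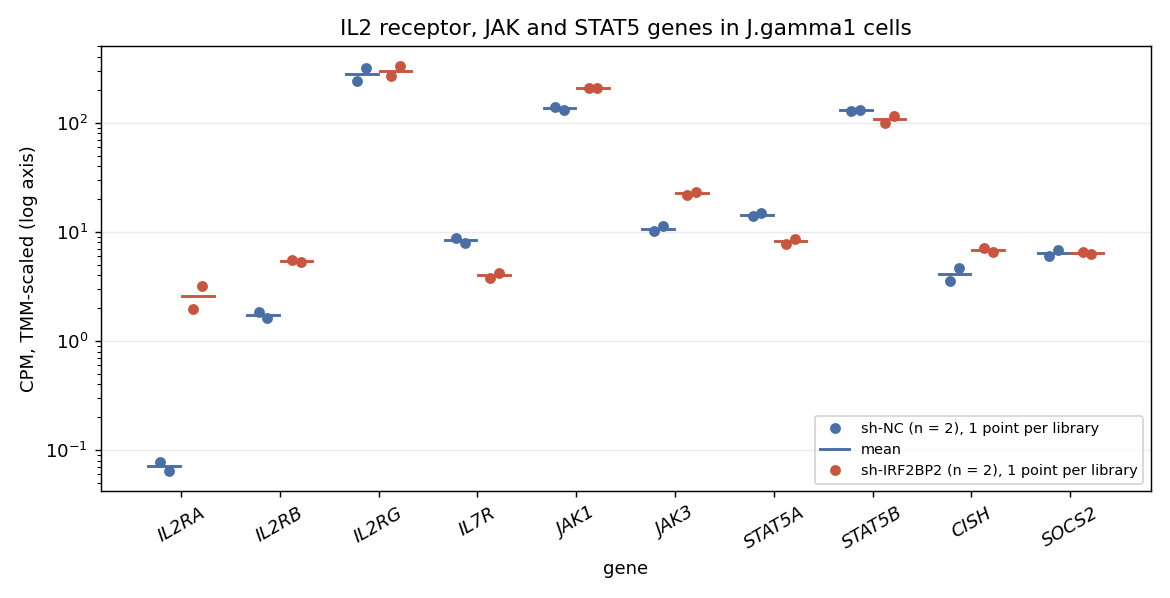
Level of each member in every J.gamma1 library. The y axis gives TMM-scaled CPM on a log scale, each point is a library (blue, sh-NC, n = 2; red, sh-IRF2BP2, n = 2) and the line is the mean of a group. IL2RA, IL2RB, JAK1, JAK3 and CISH stand higher and IL7R, STAT5A and STAT5B lower in both sh-IRF2BP2 libraries, and the points of IL2RG and SOCS2 overlap.

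Among the receptor chains, IL2RA (ENSG00000134460, hg38 chr10:6010689-6062370, minus strand) showed the greatest change of the 10. It was covered by 2 counts in each sh-NC library and by 57 and 94 counts in the sh-IRF2BP2 libraries, which corresponds to 0.0772 and 0.0645 CPM against 1.96 and 3.19 CPM. The alpha chain was thus at the limit of detection in the control cells and clearly detected, though still low, in both knockdown libraries. Over the pooled counts the ratio was 36.7, with an exact 95% interval of 14.0 to 136 that covers counting error only. The log2 fold change was 5.11 ± 0.60 (SE, adjusted p = 0.0030), a fitted value that depends on the prior count, and since the filter admitted IL2RA through the libraries where it was high, this p is a description too. When all genes with at least 1 count were tested, a filter that its sh-NC counts alone would pass, the adjusted p was 0.015.

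The beta chain IL2RB (ENSG00000100385, chr22:37118666-37175118, minus strand), which is shared with the interleukin 15 receptor, stood at 1.85 and 1.61 CPM with sh-NC and at 5.53 and 5.26 CPM with sh-IRF2BP2. The groups were well apart, and the log2 fold change was 1.64 ± 0.29 (SE, adjusted p = 0.012). The common gamma chain IL2RG (ENSG00000147168, chrX:71107404-71112108, minus strand) had 239 and 315 CPM against 269 and 330 CPM. Its groups overlapped, with a log2 fold change of 0.11 (95% confidence interval -0.28 to 0.51, adjusted p = 0.72). An annotated read-through gene covers 51.3% of the exon bases of IL2RG and had no row among those used here, so that reads from it would count as IL2RG. The interleukin 7 receptor alpha chain IL7R (ENSG00000168685, chr5:35852695-35879603, plus strand) moved the other way, from 8.84 and 7.96 CPM to 3.81 and 4.24 CPM. Every knockdown value lay below every control value, and the log2 fold change was -1.06 ± 0.23 (SE, adjusted p = 0.028). This call was lost without either sh-IRF2BP2 replicate (adjusted p = 0.12 without replicate 1 and 0.064 without replicate 2) and when all genes with at least 1 count were tested (adjusted p = 0.060).

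The promoter of the alpha chain is printed because IL2RA had the greatest change of the set in J.gamma1 cells and was not called in mouse T cells. Shown are the 250 bases before the annotated start in human (hg38 chr10:6062368-6062617, minus strand, read from the reference genome) and in mouse (GRCm38.p6 chr2:11642542-11642791, plus strand, RefSeq), with matches to the words TGTGGT or TGCGGT of RUNX factors on either strand in capitals.
IL2RA: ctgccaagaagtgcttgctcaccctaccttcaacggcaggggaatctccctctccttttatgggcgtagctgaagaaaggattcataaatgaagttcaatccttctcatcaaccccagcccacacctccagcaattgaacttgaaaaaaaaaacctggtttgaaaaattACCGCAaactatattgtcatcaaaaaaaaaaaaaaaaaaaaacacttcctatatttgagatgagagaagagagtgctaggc
Il2ra: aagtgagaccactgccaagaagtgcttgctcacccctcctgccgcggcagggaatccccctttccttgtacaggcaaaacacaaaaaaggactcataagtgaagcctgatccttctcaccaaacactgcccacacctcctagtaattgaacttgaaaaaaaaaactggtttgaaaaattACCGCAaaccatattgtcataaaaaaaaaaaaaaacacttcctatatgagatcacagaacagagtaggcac
A global alignment of both windows held 205 identical bases in 264 columns (77.7%). Each window held 1 RUNX word, ACCGCA on the printed strand, whose first base lay 81 bases before the start in human and 71 bases before it in mouse. RUNX words were found in 15.4% of 20033 human and 18.6% of 32851 mouse windows of this length. Neither window held the STAT word TTCNNNGAA, nor an ETS word (CCGGAAG or CAGGAAG, either strand). The STAT word was found in 5.7% of human and 7.0% of mouse windows, and the ETS words in 20.9% and 17.0%.

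Both JAK kinases of the pathway rose in the knockdown cells. JAK3 (ENSG00000105639, chr19:17824780-17848071, minus strand), the partner of the gamma chain, went from 10.2 and 11.2 CPM to 21.8 and 23.2 CPM. The values of each group lay close together, and the log2 fold change was 1.07 ± 0.17 (SE, adjusted p = 0.0078). JAK1 (ENSG00000162434, chr1:64833223-65067754, minus strand), which serves many cytokine receptors, went from 139 and 132 CPM to 206 CPM in both sh-IRF2BP2 libraries. Its change was smaller, with a log2 fold change of 0.61 ± 0.12 (SE, adjusted p = 0.017). The call of JAK1 was lost without sh-IRF2BP2 replicate 1 (adjusted p = 0.11), without sh-IRF2BP2 replicate 2 (adjusted p = 0.086) and when all genes with at least 1 count were tested (adjusted p = 0.051), whereas the calls of IL2RB and JAK3 were kept in each of the 9 alternatives.

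The STAT5 genes lay on the lower side. STAT5A (ENSG00000126561, chr17:42287547-42311943, plus strand) had 14.0 and 14.8 CPM with sh-NC and 7.76 and 8.65 CPM with sh-IRF2BP2. Its groups were apart, with a log2 fold change of -0.81 ± 0.19 (SE, adjusted p = 0.033). The call was lost without sh-IRF2BP2 replicate 1 (adjusted p = 0.16), sh-IRF2BP2 replicate 2 (adjusted p = 0.087) or sh-NC replicate 2 (adjusted p = 0.052) and when all genes with at least 1 count were tested (adjusted p = 0.071). STAT5B (ENSG00000173757, chr17:42199176-42288633, minus strand), the more abundant of the pair, had 128 and 132 CPM against 100 and 115 CPM, and was not called, with a log2 fold change of -0.28 (95% confidence interval -0.56 to 0.0056, adjusted p = 0.19). STAT5A and STAT5B are near-identical paralogs that lie head to head, with 415 shared exon bases on opposite strands, and use of the strand in counting is not given in the sources used here, so that their split is uncertain. Summed, both genes had a log2 fold change of -0.32 ± 0.12 (SE) and were not called (adjusted p = 0.14). STAT5A made up 9.84% and 10.1% of the summed CPM with sh-NC, and 7.01% and 7.20% with sh-IRF2BP2.

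The feedback inhibitors gave no call. CISH (ENSG00000114737, chr3:50606489-50611774, minus strand) had 3.55 and 4.64 CPM with sh-NC and 7.18 and 6.48 CPM with sh-IRF2BP2. Both knockdown values lay above both control values, and the log2 fold change was 0.73 (95% confidence interval 0.14 to 1.32, adjusted p = 0.11). The exons of CISH share 218 bases with MAPKAPK3 on the opposite strand. SOCS2 (ENSG00000120833, chr12:93569814-93583487, plus strand) had 6.02 and 6.80 CPM against 6.56 and 6.24 CPM, with overlapping groups and a log2 fold change of 0.00 (95% confidence interval -0.52 to 0.52, adjusted p = 0.99).

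The promoter of CISH is shown because it was the human member whose window held the STAT word, with the 250 bases before the annotated start (hg38 chr3:50611775-50612024, minus strand) read from the reference genome and matches to the STAT and ETS words in capitals.
CISH: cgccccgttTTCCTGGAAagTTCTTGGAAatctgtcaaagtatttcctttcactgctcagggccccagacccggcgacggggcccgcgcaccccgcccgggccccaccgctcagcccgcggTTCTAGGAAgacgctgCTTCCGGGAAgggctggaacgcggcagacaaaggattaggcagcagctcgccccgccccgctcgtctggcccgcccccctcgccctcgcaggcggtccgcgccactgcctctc
The window held 4 matches to TTCNNNGAA, TTCCTGGAA, TTCTTGGAA, TTCTAGGAA and TTCCGGGAA, whose first bases lay 241, 230, 129 and 112 bases before the start. The last of these overlapped a match to the ETS word, which began 113 bases before the start. None of the other 9 human windows held the STAT word. These matches describe the letters of the windows, and binding there was not analysed here.

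In the sh-IRF2BP2 libraries, the order of the levels per kilobase of exon differed. JAK1 at 15.7 stood above STAT5B at 8.87, and JAK3 at 2.69 stood above STAT5A at 1.29, which overlapped with CISH at 1.35. IL2RB at 0.74, IL7R at 0.67 and IL2RA at 0.65 then closed the order, with overlapping ranges for the last pair. The gamma chain was first again at 109.5, so that the alpha chain was still scarce beside it.

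The genes of at least 10 CPM whose levels over the 4 J.gamma1 libraries were most like those of IL2RA, by the root mean square distance of centred log2 CPM, were EOMES (0.49), AHNAK (0.82) and IL26 (0.92). Their log2 fold changes were 3.32, 2.65 and 2.48, and likeness over 4 libraries in 2 groups mostly orders genes by the size of their change. EOMES also belongs to the list of natural killer cell markers, whose summed level was 11.6 to 11.9 CPM in the sh-NC and 112 to 120 CPM in the sh-IRF2BP2 libraries. Of its 4 genes, EOMES made up nearly all of it, KLRD1 had 2 and 10 counts with sh-NC and 24 and 37 with sh-IRF2BP2 (log2 fold change 2.31, adjusted p = 0.073), and NCR1 and KLRK1 had 0 counts in every J.gamma1 library. KLRD1 passed the filter on low counts through the sh-IRF2BP2 libraries, so that its p is a description. Among the T cell markers, CD6 and CD28 were called higher and CD3D lower, and the summed level of the list was 1715 to 1920 CPM against 1650 to 1767 CPM. The other lists summed to 231 to 356 CPM against 529 to 558 CPM for regulatory T cells, carried by IKZF2, 50.2 to 64.9 against 15.6 to 18.0 CPM for B cells, 53.7 to 59.0 against 36.4 to 48.1 CPM for plasma cells, 8.07 to 12.1 against 8.93 to 12.9 CPM for erythroid cells and 0 to 0.48 against 0.58 to 0.81 CPM for myeloid cells. The part of these markers in the changes of the members was not tested.

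The wider pathway was described with 64 other genes in 6 lists, of which 52 could be tested in J.gamma1 cells. Of these, 8 were called higher and 6 lower, beside 5.46% and 5.01% of all tested genes, and the median log2 fold change was 0.15. Leaving out 1 library gave 4 to 11 genes higher and 3 to 7 lower. Of the 7 cytokine genes of this family, IL4, IL7, IL9 and IL21 had 0 counts in every J.gamma1 library, and IL2 had 4 counts in sh-IRF2BP2 replicate 1 and 0 counts in the other libraries. IL15 and TSLP could be tested and were not called by edgeR, with 1 of them at an unadjusted p under 0.05, where 27.6% of all tested genes were, and 1 called lower by DESeq2. Named after its values were seen, TSLP, a cytokine that signals through IL7R and CRLF2, had 7.69 and 11.5 CPM with sh-NC and 4.46 and 5.16 CPM with sh-IRF2BP2, lower without overlap (unadjusted p = 0.0057, adjusted p = 0.051 by edgeR's quasi-likelihood test). Of the other receptor chains, 4 of 5 could be tested and 0 were called by edgeR, with 2 at an unadjusted p under 0.05 and 0 called by DESeq2, and of the 6 other SOCS genes 0 were called by edgeR, with 2 at an unadjusted p under 0.05 and 1 called higher by DESeq2. All 6 of these SOCS genes had a positive log2 fold change, between 0.18 and 0.84, where 50.6% of all tested genes did.

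Among the other JAK and STAT genes, 2 of 6 were called higher and 0 lower, beside 5.46% and 5.01% of all tested genes. STAT4, which carries interleukin 12 signals, went from 2.24 and 1.90 CPM to 6.42 and 5.70 CPM (log2 fold change 1.55 ± 0.28 SE, adjusted p = 0.013). STAT3, activated by interleukin 6 and related cytokines, went from 210 and 196 CPM to 305 and 319 CPM (0.62 ± 0.12 SE, adjusted p = 0.018). The call of STAT3 was lost without sh-IRF2BP2 replicate 1 (adjusted p = 0.091) or replicate 2 (0.10) and when all genes with at least 1 count were tested (0.051), and that of STAT4 was kept in all 9 alternatives. Both STAT genes were thus called on the higher side, whereas STAT5A was called on the lower side, and the unlike direction lies between genes of 1 table and was not itself tested.

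Of 15 phosphatases, PIAS proteins and adaptors, 3 were called higher and 3 lower, beside 5.46% and 5.01% of all tested genes. Higher were PTPRC (CD45, log2 fold change 1.11 ± 0.13 SE, adjusted p = 0.0029), the adaptor SH2B3 (LNK), which restrains JAK signaling (0.84 ± 0.14 SE, adjusted p = 0.011), and the phosphatase PTPN6 (SHP-1, 0.59 ± 0.12 SE, adjusted p = 0.022). Lower were the STAT inhibitor PIAS4 (-0.96 ± 0.14 SE, adjusted p = 0.0071), the adaptor GAB2 (-0.91 ± 0.18 SE, adjusted p = 0.021) and the phosphatase PTPN2, which removes phosphate from JAK1, JAK3 and STAT5 (-0.61 ± 0.12 SE, adjusted p = 0.018). Calls were lost without sh-IRF2BP2 replicate 1 for PTPN6 (adjusted p = 0.065), PTPN2 (0.068) and SH2B3 (0.064), without sh-IRF2BP2 replicate 2 for PTPN6 (0.14), PTPN2 (0.12) and GAB2 (0.099), and when all genes with at least 1 count were tested for PTPN6 (0.073) and GAB2 (0.052). Those of PTPRC and PIAS4 were kept in all 9 alternatives, which do not include the fold thresholds. At a fold threshold of 1, only PTPRC (1.11) of the called genes of this list had a change large enough for a call.

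Of the 25 IL2 and STAT5 response genes, 19 could be tested, and 3 were called higher and 3 lower, beside 5.46% and 5.01% of all tested genes. The median log2 fold change was -0.18. The genes called lower were the anti-apoptotic BCL2, from 65.3 and 45.8 CPM to 27.6 and 22.6 CPM (-1.14 ± 0.19 SE, adjusted p = 0.011), the kinase PIM1, from 17.1 and 18.5 CPM to 9.96 and 8.28 CPM (-0.97 ± 0.19 SE, adjusted p = 0.018), and the anti-apoptotic MCL1, from 177 and 186 CPM to 103 and 105 CPM (-0.80 ± 0.12 SE, adjusted p = 0.0059). These 3 are known for cell survival. The genes called higher encode transcription factors of T-cell differentiation. They were ID2, from 1.93 and 2.58 CPM to 11.9 and 7.56 CPM (2.10 ± 0.31 SE, adjusted p = 0.0068), PRDM1 (Blimp-1), from 1.74 and 1.87 CPM to 4.46 and 4.95 CPM (1.38 ± 0.29 SE, adjusted p = 0.024), and IKZF2 (Helios), from 355 and 230 CPM to 528 and 556 CPM (0.89 ± 0.20 SE, adjusted p = 0.030). The call of PRDM1 was lost without sh-IRF2BP2 replicate 1 (adjusted p = 0.062) or replicate 2 (0.086) and when all genes with at least 1 count were tested (0.056), that of IKZF2 in the last of these (0.096), and that of PIM1 without sh-IRF2BP2 replicate 2 (0.086). Those of BCL2, MCL1 and ID2 were kept in all 9 alternatives, which do not include the fold thresholds. At a fold threshold of 1, the changes of MCL1 (-0.80), PIM1 (-0.97) and IKZF2 (0.89) were too small in size for a call.

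In mouse splenic T cells, the pathway was expressed at other proportions. In CPM per kilobase of exon, the control libraries had Il2rg at 298, Il7r at 163, Jak1 at 153 and Il2rb at 60.6, followed by Stat5b at 41.5, Jak3 at 39.9, Stat5a at 12.9, Il2ra at 8.91, Cish at 4.14 and Socs2 at 0.70. Il7r and Jak1, and Stat5b and Jak3, had overlapping ranges and did not differ beyond their spread. The gamma chain led in both systems, whereas IL7R ranked 5 of 10 in J.gamma1 and 2 of 10 in mouse T cells. The tables of the 2 systems were normalized separately, so that these are orders within each table.

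None of the 10 members was called in the knockout T cells, against 2.83% of all tested genes called in either direction. By edgeR, 2 members had an unadjusted p under 0.05, Il2rg on the lower and Cish on the higher side, where 16.2% of all tested genes were under this limit, and DESeq2 called 0 members as well. The groups did not overlap for 2 members in the higher direction and for 4 in the lower direction, against 36.0% of all tested genes, 18.2% higher and 17.8% lower. The median log2 fold change was -0.068 over the members and -0.018 over all tested genes.

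**Figure D2:**
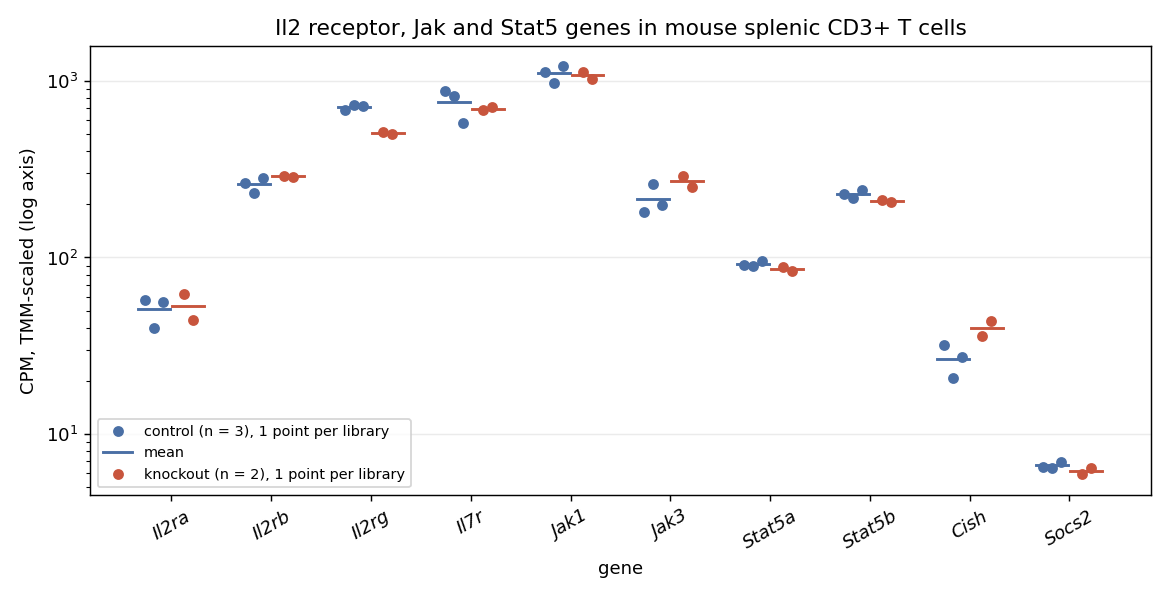
Level of each member in every mouse library. The y axis gives TMM-scaled CPM on a log scale, each point is a library (blue, control, n = 3; red, knockout, n = 2) and the line is the mean of a group. Il2rg, Stat5a, Stat5b and Socs2 stand lower and Il2rb and Cish higher in both knockout libraries than in the 3 controls on this scale, and none of these differences was called.

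The common gamma chain Il2rg (ENSMUSG00000031304, mm10 chrX:101264378-101268255, minus strand) had 684, 728 and 723 CPM in the control libraries and 513 and 501 CPM in the knockout libraries. The groups were clearly apart and each was tight. The log2 fold change was -0.49 (95% confidence interval -0.78 to -0.19) with an adjusted p of 0.11 from edgeR, and DESeq2 gave an adjusted p of 0.0022 with a change under 0.5 in size. Of the 10 T cell markers, 9 also stood lower in both knockout libraries without overlap, against 17.8% of all tested genes, and 0 were called. Their summed level was 4006 to 4628 CPM in controls and 3116 to 3335 CPM in knockout. Per 1000 CPM of these markers, Il2rg stood at 157 to 180 CPM in controls and at 150 to 165 CPM in knockout, and the groups overlapped. In such bulk libraries, fewer T cells among the sorted cells and less RNA of a gene per T cell cannot be told apart.

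Markers of other cells moved as well. The summed level of the erythroid markers (Klf1, Alas2, Slc4a1, Epor and Gata1) was 31.5 to 103.5 CPM in controls and 577 to 725 CPM in knockout. All 5 were higher without overlap and 3 were called higher, against 18.2% and 2.68% of all tested genes. The regulatory T cell markers (Foxp3, Ikzf2, Ctla4 and Tnfrsf18) summed to 203 to 236 CPM against 342 to 443 CPM. Ikzf2 was called higher, and Ctla4 had 39.9, 39.8 and 51.2 CPM against 73.3 and 189 CPM and was not called. Foxp3 stood higher without overlap and was not called (log2 fold change 0.36), and the groups of Tnfrsf18 overlapped (-0.08). The summed levels of the B cell markers were 25.5 to 216 CPM against 24.2 to 77.0 CPM, of the plasma cell markers 388 to 1122 CPM against 1091 to 1444 CPM, of the myeloid markers 29.9 to 331 CPM against 57.0 to 101 CPM, and of the natural killer cell markers 140 to 202 CPM against 112 to 153 CPM. The part of these cells in the values of the members was not tested.

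The alpha chain Il2ra (ENSMUSG00000026770), a marker of regulatory and activated T cells, had 57.0, 40.0 and 55.6 CPM in controls and 61.8 and 44.3 CPM in knockout, with overlapping groups and a log2 fold change between -0.45 and 0.58 by its 95% confidence interval. An increase of the size fitted in J.gamma1 cells lies outside this interval. The beta chain Il2rb (ENSMUSG00000068227) had 265, 231 and 283 CPM against 290 and 287 CPM. Its knockout values lay just above the controls, with a log2 fold change of 0.15 (95% confidence interval -0.17 to 0.48, adjusted p = 0.66). Il7r (ENSMUSG00000003882), which marks naive and memory T cells, had 880, 826 and 577 CPM against 683 and 709 CPM, so that the controls spanned the knockout values (log2 fold change -0.13, 95% confidence interval -0.61 to 0.35, adjusted p = 0.82).

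The kinases and STAT5 genes differed little between the mouse groups. Jak1 (ENSMUSG00000028530) had 1128, 974 and 1211 CPM in controls and 1130 and 1025 CPM in knockout (log2 fold change -0.04, 95% confidence interval -0.39 to 0.32, adjusted p = 0.94). Jak3 (ENSMUSG00000031805) had 182, 261 and 197 CPM against 290 and 250 CPM, and the groups overlapped through control replicate 2 (0.34, -0.10 to 0.79, adjusted p = 0.44). Its exons share 404 bases with Insl3 on the same strand, which had 51 to 209 counts. Stat5a (ENSMUSG00000004043) had 91.0, 89.7 and 95.3 CPM against 88.2 and 83.5 CPM, and Stat5b (ENSMUSG00000020919) had 229, 218 and 241 CPM against 211 and 207 CPM. Both were slightly lower in each knockout library on the CPM scale, and higher when scaled to T cell markers, with CPM-based log2 fold changes of -0.10 (95% confidence interval -0.37 to 0.17, adjusted p = 0.74) and -0.14 (-0.42 to 0.15, adjusted p = 0.66). Stat5a made up 28.3% to 29.1% of the summed STAT5 CPM in controls and 28.7% to 29.5% in knockout, with overlapping groups.

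Of the feedback inhibitors, Cish (ENSMUSG00000032578, mm10 chr9:107296026-107302784, plus strand) showed the largest change among the mouse members. It had 31.7, 20.7 and 27.2 CPM in controls and 35.9 and 43.5 CPM in knockout. The groups did not overlap, and the log2 fold change was 0.58 (95% confidence interval 0.08 to 1.08, adjusted p = 0.24). Socs2 (ENSMUSG00000020027) had 6.53, 6.45 and 6.94 CPM against 5.90 and 6.42 CPM, with a log2 fold change of -0.11 (95% confidence interval -0.67 to 0.45, adjusted p = 0.88). The genes of at least 10 CPM most like Cish over the 5 mouse libraries were Sdcbp2 (root mean square distance of centred log2 CPM 0.070), Zfp39 (0.087) and Myo1f (0.088).

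Small differences between the mouse groups depended on the scale. Per 1000 CPM of the summed T cell markers, Cish stood at 4.48 to 7.91 CPM in controls and 11.5 to 13.0 CPM in knockout, Il2rb at 49.9 to 70.6 against 86.0 to 93.2 CPM, and Jak3 at 45.3 to 56.4 against 75.1 to 93.2 CPM, all without overlap. On this scale, which was chosen after the data were seen and was not tested, the ratios of Il7r, Jak1, Stat5a, Stat5b and Socs2 were above 1 in place of below it, whereas Il2rg kept its direction.

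**Figure D3:**
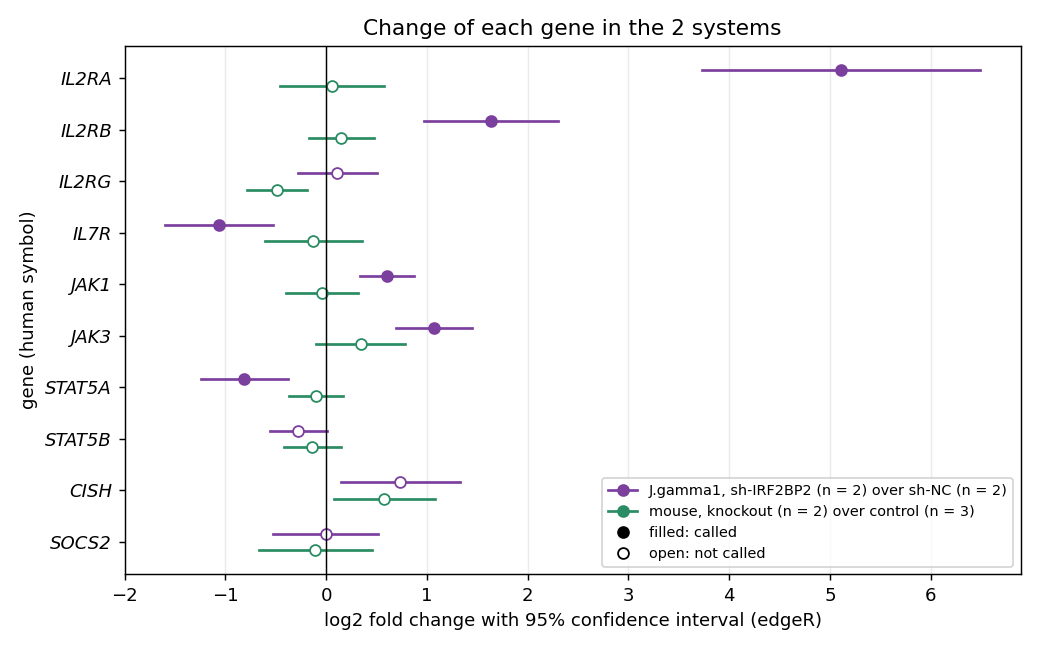
Log2 fold change of each member with its 95% confidence interval from edgeR, in J.gamma1 cells (purple, sh-IRF2BP2 over sh-NC, n = 2 each) and in mouse T cells (green, knockout, n = 2, over control, n = 3). Filled points were called and open points were not. The 6 filled points all belong to J.gamma1 cells, and the mouse intervals of all members except Il2rg and Cish include 0.

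Side by side, IL2RB and CISH stood higher and STAT5A and STAT5B lower, without overlap of the groups, in both systems on the CPM scale. The mouse STAT5 genes turn when scaled to T cell markers. Over all tested genes, 29.6% were higher and 28.7% lower without overlap in J.gamma1 cells, and 18.2% and 17.8% in mouse T cells. The share of genes with the same direction without overlap in both systems was not determined. The log2 fold changes were 1.64 and 0.15 for IL2RB, 0.73 and 0.58 for CISH, -0.81 and -0.10 for STAT5A, and -0.28 and -0.14 for STAT5B, in J.gamma1 and mouse cells respectively. Of them, only IL2RB and STAT5A were called, and only in J.gamma1 cells. The difference between the systems was not tested, since they are separate tables of different species with a knockdown in a leukemia line and a knockout in sorted normal cells.

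Of the 64 other pathway genes, 62 could be tested in mouse T cells, 3 were called higher (background 2.68% of all tested genes) and 0 lower (background 0.150%), and the median log2 fold change was 0.088. All 3 belong to the 25 IL2 and STAT5 response genes. Gzmb (granzyme B, a protease of cytotoxic cells) had 9.15, 11.7 and 4.94 CPM in controls and 40.5 and 56.0 CPM in knockout (log2 fold change 2.47 ± 0.35 SE, adjusted p = 0.020). Prdm1 had 14.1, 8.80 and 9.82 CPM against 30.2 and 28.4 CPM (1.42 ± 0.24 SE, adjusted p = 0.032). Ikzf2 had 63.9, 49.5 and 81.0 CPM against 138 and 135 CPM (1.08 ± 0.20 SE, adjusted p = 0.048). All 3 calls were lost without control replicate 1 (adjusted p = 0.11, 0.063 and 0.16) and, with a single knockout library left, without knockout replicate 1 (0.072, 0.23 and 0.28) or knockout replicate 2 (0.16, 0.22 and 0.28), and that of Prdm1 also without control replicate 3 (0.057). Ikzf2 is also in the regulatory T cell list given above. PRDM1 and IKZF2 were thus called higher with all libraries in both systems, and neither call held in every alternative in either system.

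In the other 5 lists edgeR called 0 genes in mouse T cells. At an unadjusted p under 0.05 by edgeR, where 16.2% of all tested genes were, there were 2 of 5 tested cytokines, 2 of 5 receptor chains, 1 of 6 JAK and STAT genes, 0 of 6 SOCS genes and 2 of 15 regulators. DESeq2 called 2 cytokines and 1 receptor chain, all on the higher side. Named after their values were seen, the cytokines at an unadjusted p under 0.05 were Il7, with 0.054, 0 and 0 CPM in controls and 0.71 and 1.04 CPM in knockout (adjusted p = 0.053), and Il21, with 2.86, 0.86 and 1.06 CPM against 5.87 and 8.45 CPM (adjusted p = 0.11). Both stood higher in each knockout library at levels of a few CPM or less. Il7, with 2, 0 and 0 counts in controls, passed the filter on low counts through the knockout libraries alone. Its p-values and its part in these counts are thus a description.

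**Figure D4:**
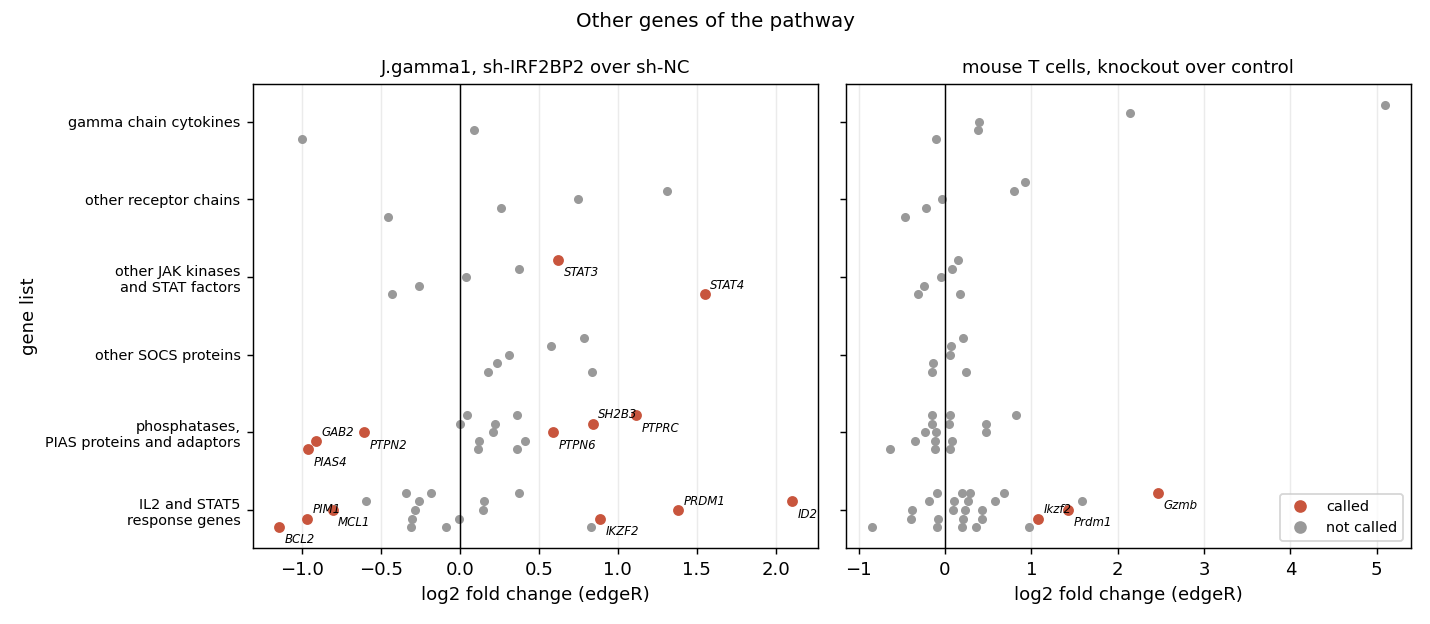
Log2 fold changes of the other tested pathway genes by list, in J.gamma1 cells (left, 52 genes) and mouse T cells (right, 62 genes), 1 point per gene, with called genes in red and named. The vertical position within a list separates points only, and the point at 5.09 on the right is Il7, whose control libraries were at or near 0. Calls on both sides of 0 appear on the left, and the 3 calls on the right are all in the IL2 and STAT5 response list.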

How the data were processed

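RNA was sequenced from 4 J.gamma1 libraries and 5 libraries of mouse splenic CD3+ T cells. The authors deposited raw whole-number counts for each Ensembl gene in each library, and per the submitters' processing notes the reads were aligned with HISAT2 2.2.0 to hg38 or mm10 and quantified with StringTie; how coverage became counts, and whether the strand was used, is not given in the sources used here. Rows were matched by identifier to GENCODE 44 (56105 of 64252 human rows) and M21 (42462 of 43432 mouse rows), and the rest were left out.

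Each table was filtered with filterByExpr, scaled by TMM and tested on condition alone by the quasi-likelihood test (glmQLFit, glmQLFTest) of edgeR 4.0.16 under R 4.3.3. The biological coefficient of variation was 0.16 in the human and 0.27 in the mouse table, with 2 and 3 residual degrees of freedom. Calls used Benjamini-Hochberg adjustment over all genes tested and needed an adjusted p under 0.05 with a log2 fold change reaching 0.5 in size, the threshold stated by the study. Levels per kilobase use the union of annotated exons. Replicates differed by more than sampling noise, so each library counted as 1.

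Named were the 10 members, IRF2BP2, the called genes of 6 pathway lists (at most 3 per list and direction), the 3 genes most like the member with the largest change, and genes of 7 cell type marker lists; other genes were chosen after their values were seen. Some items of these lists are not reported here and entered no count or sum of them. Members and lists were chosen with earlier results of these data known. Alternatives were DESeq2 1.42.0, RLE scaling, at least 1 count in any library, all rows, fold thresholds of 0 and 1, a block for the replicate number, leaving out each library, and the longest transcript as length; the summed STAT5 genes and the scaling to T cell markers were chosen after seeing the data. The alternatives counted for the call of a single gene leave out the fold thresholds and the longest transcript as length. The edgeR and DESeq2 fits were first tested on simulated counts with known changes. Of 100 genes with a log2 fold change of 1 in size, edgeR recovered 63 in the human and 38 in the mouse design. At a size of 2 it recovered 96 and 77 of 100. DESeq2 recovered 71 in the human and 60 in the mouse design at a size of 1. At a size of 2 DESeq2 recovered 96 and 90. False calls numbered 12 with edgeR in each design. With DESeq2 they numbered 24 in the human and 68 in the mouse design. Promoter windows were searched in Python on both strands; Il2rb and Socs2 had no entry in the mouse promoter table.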

Additional observations from a re-analysis of the deposited data

Results flagged for a closer look

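Among the 8 genes of the wider pathway called higher in J.gamma1 cells, 3 had unlike directions in the 2 systems on the CPM scale. For these 3, every knockdown library lay on the higher side of its controls in J.gamma1 cells. Every knockout library lay on the lower side in mouse T cells. Over all tested genes, 29.6% were higher without overlap in J.gamma1 cells and 17.8% lower without overlap in mouse T cells. The share of genes with both was not determined. STAT4 had a log2 fold change of 1.55 in J.gamma1 cells, and Stat4 had -0.31 in mouse T cells, with 164, 151 and 162 CPM in controls and 134 and 123 CPM in knockout. PTPN6 had 0.59, and Ptpn6 had -0.64, with 302, 462 and 366 CPM against 229 and 257 CPM. SH2B3 had 0.84, and Sh2b3 had -0.35, with 77.8, 90.2 and 89.8 CPM against 68.6 and 66.5 CPM. The human genes were called and the mouse genes were not (adjusted p = 0.28, 0.19 and 0.25 by edgeR's quasi-likelihood test). The difference between the systems was not tested. The mouse genes were named after their values were seen. The summed level of the T cell markers was also lower in the knockout, at 3116 to 3335 CPM against 4006 to 4628 CPM, and its part in these values was not tested. These 3 genes were not scaled to T cell markers, a scale on which mouse Il7r, Jak1, Stat5a, Stat5b and Socs2 changed direction. Their lower side in mouse T cells is thus given for the CPM scale only.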

How the results depend on the processing

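Calls of IL2RB and JAK3 were kept in all 9 alternatives, and 0 mouse members were called in any alternative with a test. With at least 1 count in any library, J.gamma1 calls fell to 319 genes higher and 396 lower (864 and 793 as reported), 4 pathway genes higher and 0 members lower. With a fold threshold of 1 they were 262 and 318 genes, 4 pathway genes higher and 1 lower, and 1 member lower. Leaving out 1 J.gamma1 library gave 418 to 1608 genes higher, 419 to 1143 lower, 4 to 11 pathway genes higher, 3 to 7 lower, 3 to 4 members higher and 0 to 2 lower; without a mouse library it gave 6 to 594 genes higher, 1 to 65 lower and 0 to 3 pathway genes higher. The lowest mouse counts higher were 6 without control replicate 1, 9 without knockout replicate 2 and 47 without knockout replicate 1. A group left with 1 library is assumed to vary like the others. DESeq2 called 947 mouse genes higher and 215 lower, with 7 pathway genes higher and 1 lower; the cause was not tested. The sign reversed for IL2RG without sh-NC replicate 1 (-0.077) or sh-IRF2BP2 replicate 2 (-0.045), SOCS2 without sh-NC replicate 2 (0.086) or sh-IRF2BP2 replicate 2 (0.029), Il2ra without control replicate 2 (-0.069) or knockout replicate 1 (-0.22), and Jak1 without control replicate 3 (0.031) or knockout replicate 2 (0.010), none of them called, with ranges over left-out libraries of -0.077 to 0.32, -0.091 to 0.086, -0.22 to 0.26 and -0.13 to 0.031. Scaled to T cell markers, Il7r (0.26), Jak1 (0.34), Stat5a (0.28), Stat5b (0.24) and Socs2 (0.27) reversed. With the longest transcript as length, JAK3 ranked 5 and IL7R 6 in J.gamma1 cells, and Jak1 2, Il7r 3, Jak3 5 and Stat5b 6 in mouse cells.

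Replicate numbers are shared by the groups, but nothing says that they pair libraries, and same-numbered libraries deviated with correlations of 0.23 in J.gamma1 and 0.15 and -0.16 in mouse cells. With the replicate number as a block, CISH was called (log2 fold change 0.74, adjusted p = 0.047 by edgeR), 5 members were called higher and 2 lower, 1293 and 1174 J.gamma1 genes were called, 53 mouse genes were lower (23 without it) and Jak1 reversed (0.038). Depth limits IL2RA most, at 2 counts per sh-NC library.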
